A study of Rattus norvegicus with 8 samples.

Results

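The proteasome genes on these arrays were taken by name: every probe that was not a control and whose gene name began with Psma, Psmb, Psmc, Psmd, Psme, Psmf or Psmg. That gave 50 gene names on 57 of 30367 probes. They held 15 genes of the core particle, counted with the testis form Psma8, 17 of the regulatory particle, the 3 immunoproteasome subunits Psmb8, Psmb9 and Psmb10, 4 other activators, 7 assembly chaperones, the inhibitor Psmf1 and the thymus subunit Psmb11. Of the remaining names, Psma3l is an older name of Psma3, which was therefore measured under both names, and Psmc3ip is a partner protein of meiotic recombination that is no proteasome subunit. The filter on dim probes kept 54 of the 57 probes and at least 1 probe of each of the 50 names. The probes left out were 2 of Psma8 and 1 of Psmb11.

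The study measured liver RNA of 8 male Fisher 344 (F344) rats aged 18 weeks, with 1 array for each animal. The 4 treated rats had received furan, a liver carcinogen of rodents, by gavage for 90 days, on 5 days of each week, at 8 mg for each kg of body weight, and all rats were killed 24 hours after the last dose. The other 4 rats were controls, and the vehicle they received is not given in the sources used here. Each slide carried 2 control and 2 furan arrays, with replicates 1 and 2 on slide 1 and replicates 3 and 4 on slide 2. Levels are log2 processed signals relative to the 75th percentile of the array, and a difference is furan minus control on that scale. Levels of different probes are not compared, because each probe has its own brightness. In whole liver, fewer cells of a type and less RNA per cell cannot be told apart.

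The proteasome is the protease that degrades most short-lived and damaged proteins of the cell. A barrel of alpha and beta rings holds the cutting sites, and a regulatory particle of ATPases and non-ATPase subunits binds ubiquitin chains, unfolds the substrate and feeds it in. Under interferon the cutting subunits Psmb5, Psmb6 and Psmb7 are replaced in newly built particles by Psmb8, Psmb9 and Psmb10, and this immunoproteasome trims peptides for MHC class I. The transcription factor NRF1 (Nfe2l1) raises all subunit genes together when proteasome activity falls, and NRF2 (Nfe2l2) can raise some of them under electrophilic stress.

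The inducible and constitutive cutting subunits are compared in pairs below. The start regions of those with a match to a pattern marked here are shown, with the probes that measured the most different pair. Psmb7 and Psmb9 had no match to either marked pattern, and their start regions are not shown. The start regions come from RefSeq (GRCr8), where 44 of the 50 names matched, and run from 250 bases before to 50 bases after the gene start on the strand of the gene. Psma7, Psmb11, Psmd6, Psmd12, Psmd14 and Psma3l were not matched. Capitals mark matches on either strand to the core of the interferon-stimulated response element, which reads GAAA, any 2 bases and GAAA again, in Psmb8 (chr20:4656982-4657281, minus strand) and Psmb10 (chr19:50743243-50743542, minus strand). In Psmb5 (chr15:32047330-32047629, minus strand) and Psmb6 (chr10:55737638-55737937, plus strand) they mark matches to TGACNNNGC, the core of the antioxidant response element.
Psmb8 start region: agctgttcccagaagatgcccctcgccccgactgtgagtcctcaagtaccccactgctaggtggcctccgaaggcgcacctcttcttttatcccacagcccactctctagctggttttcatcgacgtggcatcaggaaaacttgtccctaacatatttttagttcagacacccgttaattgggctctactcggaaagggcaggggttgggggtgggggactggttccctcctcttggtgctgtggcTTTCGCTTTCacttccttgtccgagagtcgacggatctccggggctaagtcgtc
Psmb10 start region: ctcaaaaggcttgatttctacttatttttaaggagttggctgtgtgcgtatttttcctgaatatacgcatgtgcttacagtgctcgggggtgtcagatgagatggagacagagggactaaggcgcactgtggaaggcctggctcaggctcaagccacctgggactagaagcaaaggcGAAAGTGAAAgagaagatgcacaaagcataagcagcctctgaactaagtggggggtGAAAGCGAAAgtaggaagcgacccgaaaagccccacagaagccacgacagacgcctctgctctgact
Psmb5 start region: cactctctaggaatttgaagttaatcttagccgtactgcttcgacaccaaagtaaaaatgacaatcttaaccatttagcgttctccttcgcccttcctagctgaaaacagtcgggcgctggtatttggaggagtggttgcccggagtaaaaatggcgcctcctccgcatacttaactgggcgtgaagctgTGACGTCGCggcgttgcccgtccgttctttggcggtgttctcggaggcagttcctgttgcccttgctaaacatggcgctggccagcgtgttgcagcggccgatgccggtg
Psmb6 start region: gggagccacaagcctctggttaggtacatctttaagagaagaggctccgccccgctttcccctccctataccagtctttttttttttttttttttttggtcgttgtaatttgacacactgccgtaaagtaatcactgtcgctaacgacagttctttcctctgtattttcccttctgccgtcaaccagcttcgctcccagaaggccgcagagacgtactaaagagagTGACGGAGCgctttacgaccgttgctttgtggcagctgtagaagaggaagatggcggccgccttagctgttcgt
The 60-base probes of Psmb8 (chr20:4787980-4788039) and Psmb5 (chr15:32690134-32690193), on the rn4 build of the array annotation, were these.
Psmb8 probe: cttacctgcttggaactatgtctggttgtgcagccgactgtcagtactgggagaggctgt
Psmb5 probe: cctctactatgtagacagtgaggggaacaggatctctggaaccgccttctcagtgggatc

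The interferon-stimulated core was found in 7 of the 44 start regions (15.9%): those of Psma4, Psmb3, Psmb8, Psmb10, Psmd7, Psme2 and Psmg4. It was found in 3.92% of all 33469 start regions. The immunoproteasome held it in 2 of 3 regions. In Psmb10 it stood at 2 places, and in Psmb8 it lay across the start itself. TGACNNNGC was found in 8 of 44 (18.2%), those of Psma3, Psmb2, Psmb5, Psmb6, Psmd1, Psmd3, Psme4 and Psmd9, against 12.1% of all regions, and in none of the 3 immunoproteasome regions. CCAAT, the box bound by NF-Y, was found in 22 of 44, against 37.5% of all regions. These are matches of letters in a window and say nothing of binding.

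Across all 17684 features tested, limma called 34.2% different at a Benjamini-Hochberg adjusted p below 0.05 over all features, 17.3% higher and 16.9% lower under furan. Among the 50 proteasome names 8 were called (16.0%), 5 of them higher and 3 lower. The genes that rose were Psmd13, a lid subunit of the regulatory particle, and the assembly chaperones Psmd5, Psmg2, Psmg3 and Psmg4. The genes that fell were the immunoproteasome subunit Psmb8, the ATPase Psmc6 and the activator Psme4. The median difference was 0.03 for the proteasome names and -0.03 for all features, and the median size of the difference was 0.18 against 0.36. A difference of 0.5 or more in size was seen for 5 of the 50 names and for 35.7% of all features. The groups did not overlap for 9 names, against 36.7% of all features; furan was higher for 6, against 18.8%, and lower for 3, against 18.0%.

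Most of these genes were measured closely enough to bound their change. The 95% interval of the difference lay within 1.5-fold either way for 35 of the 50 names, and for 28.9% of all features. The median standard error was 0.121 for the proteasome names and 0.163 for all features. Of the 42 names that were not called, 33 had such an interval, with bounds between -0.55 and 0.51. The other 9 had intervals that reached past 1.5-fold, so a larger change of those genes could not be bounded here. For 5 of the 42 the unadjusted p was below 0.05, namely Psma5 (-0.32), Psma8 (1.09), Psmb5 (0.44), Psmd14 (0.25) and Psmg1 (-0.42).

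**Figure D1:**
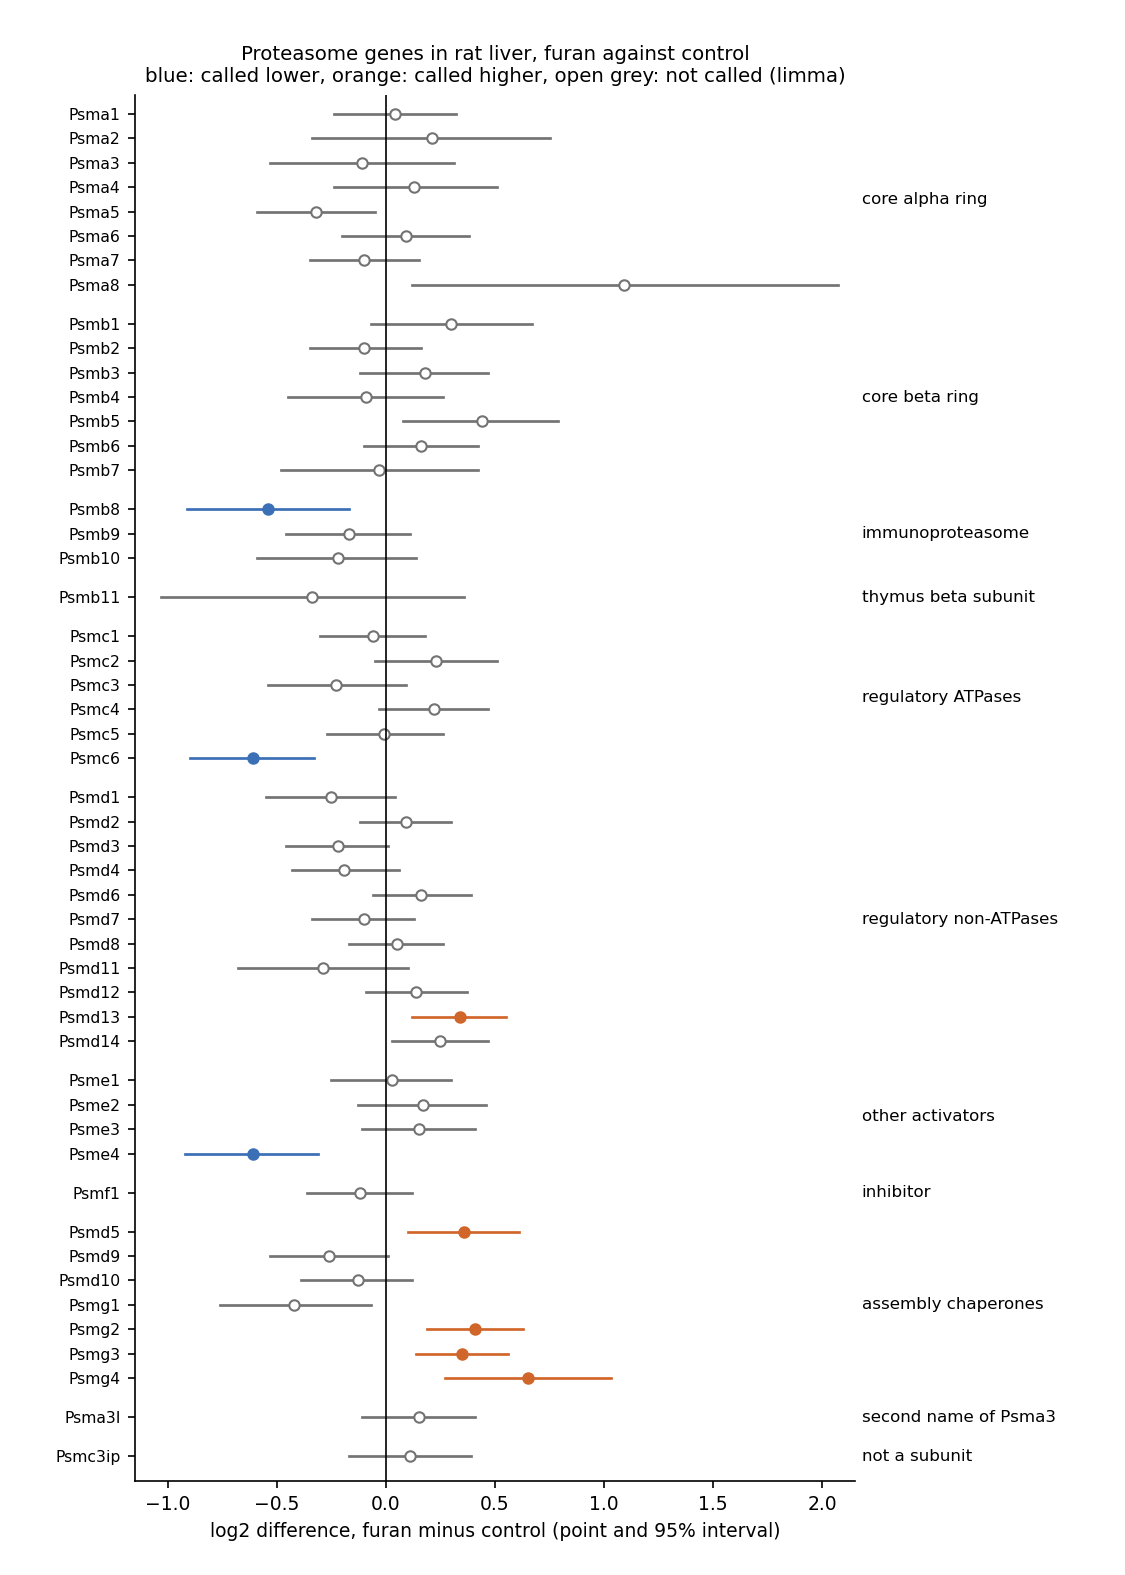
Differences of the 50 proteasome names, furan minus control on the log2 scale, as points with 95% intervals from limma, ordered by role. Blue marks the 3 names called lower, orange the 5 called higher, and most of the open grey points lie close to 0.

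In the core particle, counted with the testis form Psma8, limma called none of 15 genes, where 34.2% of all features were called. For 3 genes (Psma5, Psma8 and Psmb5) the unadjusted p was below 0.05. The median difference was 0.09, with 9 genes above 0 and 6 below, and the differences ran from -0.32 to 1.09. The value of 1.09 was that of Psma8, and the next highest was 0.44 (Psmb5). The median over the core genes, taken on each array against the control mean, ran from -0.08 to 0.11 in controls and from -0.15 to 0.32 in furan, so the groups overlapped. The alpha ring, which gates the entry to the barrel, had a median of 0.06 over 8 genes, and the beta ring, which holds the cutting sites, had 0.16 over 7.

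Within the alpha ring, Psma5 had the lowest difference. Its levels were 4.31, 3.92, 4.02 and 4.08 in controls and 3.69, 3.72, 3.69 and 3.94 in furan, where furan 4 lay above control 2 (difference -0.32, interval -0.59 to -0.05, adjusted p = 0.0684 by limma). Psma1, Psma4, Psma6 and Psma7 had differences of 0.04, 0.13, 0.09 and -0.10. Psma2, the alpha subunit with the widest spread among those that are bright here, had 0.21 (-0.34 to 0.75). Psma3 had -0.11 on the probe of its current name and 0.15 on the probe named Psma3l. Psma8, the testis form of an alpha subunit, was dim: its mean level was -5.81 in controls and -4.71 in furan, the groups overlapped, and 2 further probes of the gene did not pass the filter, one well above background on 1 furan array and the other on none. Its difference of 1.09 (0.12 to 2.07, adjusted p = 0.0798) is the largest of all 50 and the least precise. With the normexp background correction it was 0.03 (adjusted p = 0.887 by limma).

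Within the beta ring, Psmb5, the constitutive chymotrypsin-like subunit, had the highest difference. Its levels were 3.10, 2.86, 2.85 and 2.95 in controls and 3.06, 3.44, 3.25 and 3.75 in furan. Furan 1 lay among the controls and the other 3 furan arrays above all of them. The difference was 0.44 ± 0.16 (SE, n = 4 against 4, interval 0.08 to 0.79, adjusted p = 0.0612 by limma), and without furan 1 it passed the threshold at an adjusted p of 0.0265. Psmb6, the caspase-like subunit, had 0.16 (-0.10 to 0.42), and Psmb7, the trypsin-like subunit, had -0.03 (-0.48 to 0.42). The structural subunits Psmb1, Psmb2, Psmb3 and Psmb4 had 0.30, -0.10, 0.18 and -0.09. Psmb11, the thymus form of the chymotrypsin-like subunit, was dim, with a difference of -0.34 (-1.03 to 0.36) that was -0.99 on slide 1 and 0.32 on slide 2.

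The 3 immunoproteasome subunits all had differences below 0, and 1 of them was called, where 34.2% of all features were. Psmb8, the inducible chymotrypsin-like subunit, had levels of 2.93, 2.35, 2.76 and 2.68 in controls and 1.89, 2.04, 2.20 and 2.43 in furan. The groups overlapped, because furan 4 stood above control 2. Psmb8 fell from 2.68 ± 0.24 to 2.14 ± 0.23 (SD, n = 4), a log2 difference of -0.54 ± 0.16 (SE, interval -0.91 to -0.17, adjusted p = 0.0341 by limma), or 0.688 of the control level. The difference was -0.67 on slide 1 and -0.41 on slide 2. The call was lost when any 1 of 6 arrays was left out, at adjusted p values of 0.0815, 0.0828 and 0.072 without control 1, 3 and 4 and of 0.0693, 0.0879 and 0.0605 without furan 1, 2 and 3.

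Psmb9, the inducible subunit that takes the place of Psmb6, had levels of 2.50, 2.08, 2.34 and 2.37 in controls and 2.01, 2.32, 2.07 and 2.20 in furan. These overlapped, with a difference of -0.17 (-0.46 to 0.11, adjusted p = 0.318 by limma). Psmb10, the inducible trypsin-like subunit, had 2.85, 2.24, 2.75 and 2.66 in controls and 2.35, 2.35, 2.24 and 2.67 in furan, which also overlapped. Its difference was -0.22 (-0.59 to 0.14, adjusted p = 0.311). On all 3 genes control 2 was the lowest control, and the median over the 3 genes was -0.33 on control 2 and between 0.04 and 0.23 on the other controls. In furan it ran from -0.38 to -0.12. Without control 2 and furan 1 the median difference of the class was -0.34, against -0.22 with all arrays.

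**Figure D2:**
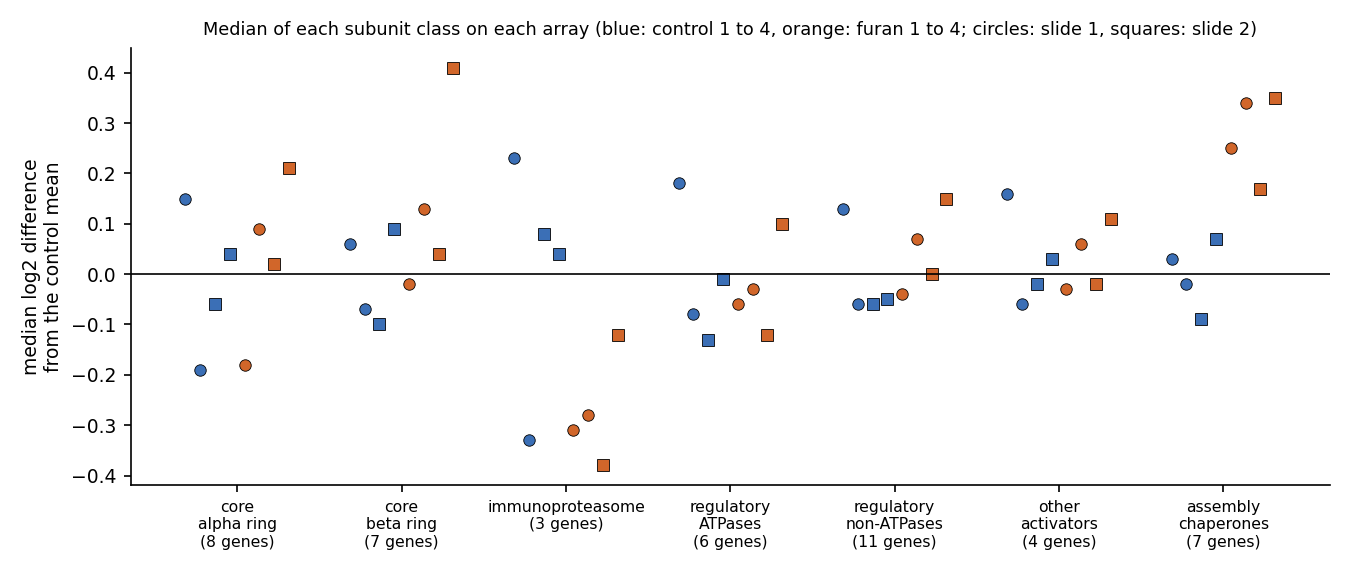
Median over the genes of each class on each array, as the log2 difference from the control mean, with controls in blue and furan in orange. The immunoproteasome furan arrays lie between -0.38 and -0.12 with control 2 among them. The assembly chaperones are the class whose furan arrays, from 0.17 to 0.35, all lie above the controls, from -0.09 to 0.07. Of those 7 genes, 4 had differences above 0 and 3 below.

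Each inducible subunit takes the place of 1 constitutive subunit, so the log2 ratio of the inducible to the constitutive signal was taken within each array. Only its difference between the groups can be read, since each ratio sets 2 different probes side by side. For Psmb8 over Psmb5 the ratio was -0.17, -0.51, -0.09 and -0.27 in controls and -1.17, -1.40, -1.06 and -1.32 in furan. All 4 furan arrays lay below all 4 controls. The mean went from -0.26 ± 0.18 to -1.24 ± 0.15 (SD, n = 4), a difference of -0.98, or a 1.97-fold lower ratio. The exact two-sided permutation p was 0.0286, the smallest that 4 against 4 arrays can give, and 0.0857 after Benjamini-Hochberg adjustment over the 3 pairs. After that adjustment a pair can pass the threshold only if another pair also reaches 0.0286. The adjusted value therefore cannot decide on this pair by itself. The difference was -0.94 on slide 1 and -1.01 on slide 2, and it stayed between -1.06 and -0.92 with any 1 array left out.

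For Psmb9 over Psmb6 the ratio was 0.43, -0.05, 0.29 and 0.18 in controls and -0.14, 0.07, -0.08 and -0.32 in furan, with 3 of 4 furan arrays below all controls. The difference was -0.33 (exact permutation p = 0.0571, adjusted 0.0857). For Psmb10 over Psmb7 it was 0.70, 0.27, 0.82 and 0.53 in controls and 0.91, 0.24, 0.13 and 0.27 in furan. This pair had a difference of -0.19 (exact permutation p = 0.371) that was 0.09 on slide 1 and -0.47 on slide 2. The ratio shows unequal change of the subunits of a pair. The differences of Psmb8 and Psmb5 themselves were -0.54 and 0.44.

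**Figure D3:**
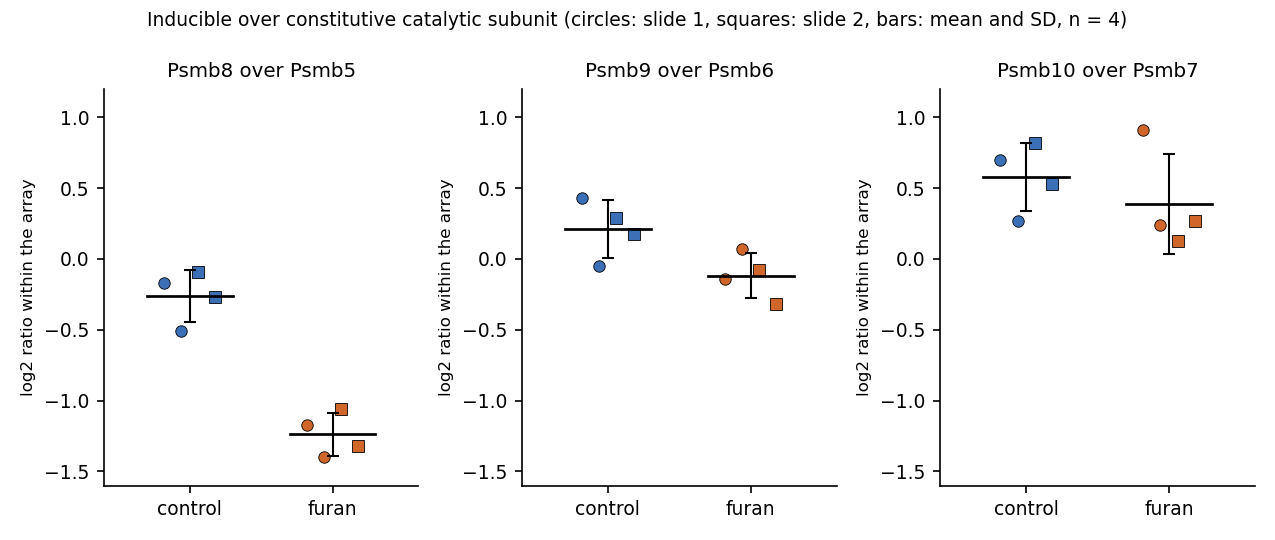
Log2 ratio of each inducible cutting subunit to the constitutive subunit it replaces, within each array, with the group mean and SD (n = 4). For Psmb8 over Psmb5 the controls lie between -0.51 and -0.09 and the furan arrays between -1.40 and -1.06, while the groups overlap for the other pairs.

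In the regulatory particle 2 of 17 genes were called, 1 in each direction, where 34.2% of all features were called. The median difference was -0.01. The array medians ran from -0.07 to 0.15 in controls and from -0.11 to 0.15 in furan. Among the ATPases, which form the ring that unfolds the substrate, Psmc6 was the gene that fell. Its levels were 0.59, 0.40, 0.30 and 0.44 in controls and -0.31, -0.36, 0.03 and -0.09 in furan, with no overlap. The fall was from 0.43 ± 0.12 to -0.18 ± 0.18 (SD, n = 4), a difference of -0.61 ± 0.12 (SE, interval -0.90 to -0.33, adjusted p = 0.00714 by limma). It was -0.83 on slide 1 and -0.40 on slide 2, and the call held without any 1 array (adjusted p from 0.00791 to 0.023). The other 5 ATPases, which sit in the same ring, had differences of -0.06 (Psmc1), 0.23 (Psmc2), -0.23 (Psmc3), 0.22 (Psmc4) and -0.01 (Psmc5), and none was called. Psmc6 was measured by 1 probe (chr15:21238582-21238641 on rn4).

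Among the 11 non-ATPase subunits of the base and lid the median was 0.05, and Psmd13 was the gene that rose. Its levels were 1.10, 0.92, 0.97 and 0.93 in controls and 1.37, 1.21, 1.35 and 1.34 in furan, without overlap. The difference was 0.34 ± 0.09 (SE, interval 0.12 to 0.55, adjusted p = 0.0252 by limma), and both slides had a difference above 0 (0.28 and 0.40). Leaving out control 2, 3 or 4 ended the call (adjusted p of 0.0703, 0.0675 and 0.0687), and so did leaving out furan 3 (0.0561). Psmd14, the deubiquitinase of the lid, had 0.25 (0.03 to 0.47, adjusted p = 0.0726), and its furan arrays all lay above the controls. Psmd3, another lid subunit, had -0.22 (-0.46 to 0.01, adjusted p = 0.13), and its furan arrays all lay below the controls. The ubiquitin receptor Psmd4 had -0.19. The large scaffold subunits Psmd1 and Psmd2 had -0.25 and 0.09. Psmd6, Psmd7, Psmd8 and Psmd12 had 0.16, -0.10, 0.05 and 0.14, and Psmd11 had -0.29 (-0.68 to 0.10).

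The other activators dock on the ends of the barrel in place of the regulatory particle. Of the 4, limma called 1, where 34.2% of all features were called. It was Psme4, the large nuclear activator known for its role with acetylated histones. Its levels were 1.35, 1.16, 1.23 and 1.04 in controls and 0.53, 0.35, 0.87 and 0.57 in furan, without overlap. It fell from 1.19 ± 0.13 to 0.58 ± 0.22 (SD, n = 4), a difference of -0.61 ± 0.13 (SE, interval -0.92 to -0.31, adjusted p = 0.00975 by limma). The difference was -0.82 on slide 1 and -0.41 on slide 2, and the call held without any 1 array, at adjusted p values from 0.00643 to 0.0307. A second Psme4 probe (chr14:111997089-111997148 on rn4) read -0.18, -0.32, -0.41 and -0.35 in controls; its furan values lay lower, from -1.27 to -0.59. It gave -0.64 (adjusted p = 0.0131 with every probe as a feature of its own), so both probes fell.

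The interferon-inducible activator pair, Psme1 and Psme2, which works with the immunoproteasome, had differences of 0.03 (-0.25 to 0.30) and 0.17 (-0.13 to 0.46). Psme3, the related nuclear activator, had 0.15 (-0.11 to 0.41). Psmf1, an inhibitor of the core particle, had -0.12 (-0.36 to 0.12), and its second probe had -0.16. None of these was called, and their intervals all lay within 1.5-fold either way.

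The assembly chaperones held 4 of the 8 calls: 4 of 7 rose, where 17.3% of all features did, none fell, and the median difference was 0.35, against -0.03 for all features. These proteins help build the particle and are not part of the finished protease. The class was split, with 4 genes above 0, all of them called, and 3 below: Psmg1 (-0.42), Psmd9 (-0.26) and Psmd10 (-0.13). On each array the class median was 0.03, -0.02, -0.09 and 0.07 in controls and 0.25, 0.34, 0.17 and 0.35 in furan, so the groups did not overlap. With 4 of 7 genes called higher, this median restates those calls and does not show a rise of the whole class. Psmg1 and Psmg2 form 1 dimer and Psmg3 and Psmg4 another, and both dimers guide the alpha ring. Psmd5, Psmd9 and Psmd10 guide the base of the regulatory particle.

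Psmg2 had levels of -0.89, -0.94, -1.02 and -0.83 in controls and -0.41, -0.46, -0.61 and -0.56 in furan, without overlap. It rose by 0.41 ± 0.10 (SE, interval 0.19 to 0.63, adjusted p = 0.0126 by limma), and the call held without any 1 array but not without control 2 and furan 1 together (adjusted p = 0.0592). Its partner Psmg1 had a difference of -0.42 (-0.76 to -0.07, adjusted p = 0.0618), which did not pass and pointed the other way.

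Psmg3 had levels of -0.10, -0.08, -0.22 and -0.15 in controls and 0.23, 0.21, 0.10 and 0.31 in furan, without overlap. It rose by 0.35 ± 0.09 (SE, interval 0.14 to 0.56, adjusted p = 0.0207 by limma), a call lost without control 3 (0.0656), control 4 (0.0544) or furan 2 (0.0502). Its partner Psmg4 had levels of 1.34, 1.16, 1.10 and 1.40 in controls and 1.50, 2.02, 1.85 and 2.23 in furan, again without overlap. Psmg4 rose by 0.65 ± 0.17 (SE, interval 0.27 to 1.03, adjusted p = 0.0184 by limma), and this call was lost without control 3 (0.0534) or furan 2 (0.0547). A second Psmg4 probe, which shares 14 bases with the first, read 0.45, 0.35, 0.07 and 0.28 in controls and 0.13, 0.96, 0.85 and 1.26 in furan. With furan 1 below 3 of the controls, that probe gave 0.51 and was not called (adjusted p = 0.115).

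Psmd5 had levels of 0.30, 0.34, 0.39 and 0.21 in controls and 0.87, 0.64, 0.48 and 0.65 in furan, without overlap. It rose by 0.36 ± 0.11 (SE, interval 0.10 to 0.61, adjusted p = 0.0382 by limma). This call was lost when any 1 array but furan 3 was left out: at 0.077, 0.0751, 0.0671 and 0.0982 without control 1 to 4, and at 0.0658, 0.0791 and 0.0627 without furan 1, 2 and 4. Psmd9 had -0.26 (adjusted p = 0.117) and -0.18 on its second probe. Psmd10, known as the oncoprotein gankyrin in liver cancer, had -0.13 (-0.39 to 0.12, adjusted p = 0.382). Without control 2 and furan 1 together, Psmg4 was the only 1 of the 5 risen genes that was still called, while Psmb8, Psmc6 and Psme4 were all called.

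**Figure D4:**
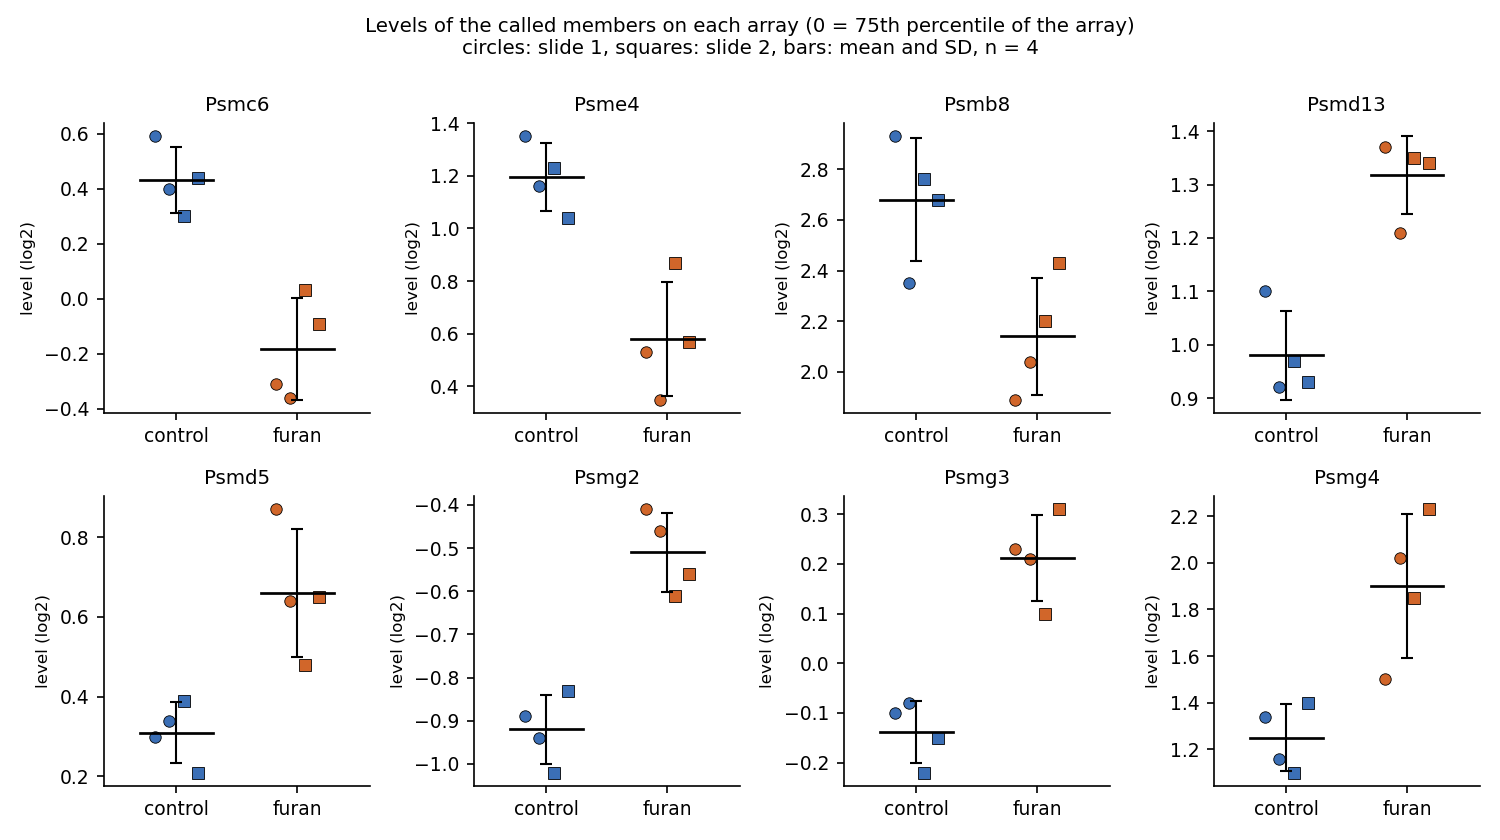
Log2 level of the 8 called genes on each array, with the group mean and SD (n = 4), where 0 is the 75th percentile of the array and each panel has its own scale. The groups do not overlap in 7 panels, and in the Psmb8 panel furan 4 (2.43) stands above control 2 (2.35).

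The list of other genes of the ubiquitin-proteasome pathway drawn up for this comparison held 35 names, of which 32 were tested. Ecpas, Paaf1 and Pi31 were not matched by name. Pi31 is another name of Psmf1, which was measured as a member and is reported above. limma called 2 higher and 7 lower, 9 of 32 where 34.2% of all features were called, with a median difference of -0.09. The largest falls were in Ubqln2, a shuttle that carries ubiquitinated proteins to the proteasome (-0.89, adjusted p = 0.00684), in Sqstm1, the autophagy receptor p62 (-0.63, adjusted p = 0.0114), and in Ddi2, the protease that activates NRF1 (-0.50, adjusted p = 0.044). Furan arrays lay below all controls for Ubqln2 and Sqstm1. The Ddi2 call was lost in 6 of 8 fits that each left out 1 array: without any 1 control (adjusted p from 0.0502 to 0.098) and without furan 2 (0.0921) or furan 4 (0.0877). Pomp, the maturation factor of the core particle, had -0.10 (-0.48 to 0.28), and the genes of NRF1 and NRF2 had 0.12 (-0.23 to 0.46) and 0.42 (-0.05 to 0.90).

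Among 15 tested genes of class I presentation and the interferon response, 8 fell, where 16.9% of all features did, and 1 rose, with a median of -0.59. The interferon-induced Isg15 read -0.22, -0.69, -0.23 and 0.00 in controls and -1.46, -1.12, -1.14 and -1.64 in furan, without overlap (difference -1.06, adjusted p = 0.00386 by limma). Irf9, which carries the interferon signal to the nucleus, fell by 0.86 on the log2 scale (adjusted p = 0.00233). B2m, the light chain of class I, had a difference of -0.72 (adjusted p = 0.018). Irf1, a factor that drives the immunoproteasome genes, had -0.38 (-0.71 to -0.05, adjusted p = 0.076), and Tap1, the peptide transporter, had -0.50 (-0.96 to -0.04, adjusted p = 0.0869). Tapbp, the tapasin gene, was the 1 that rose (0.36, adjusted p = 0.0396). That call was lost without control 2, 3 or 4 (adjusted p of 0.0981, 0.0815 and 0.104) and without furan 1, 2 or 4 (0.0613, 0.0983 and 0.0727). Beside these values, Psmb8, Psmb9 and Psmb10 had differences of -0.54, -0.17 and -0.22. The proteasome genes with the interferon-stimulated core in their start region went both ways. Psma4, Psmb3, Psme2 and Psmg4, the last called higher, had 0.13, 0.18, 0.17 and 0.65. Psmb8, Psmb10 and Psmd7 had -0.54, -0.22 and -0.1.

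Of the 11 NRF2 targets listed, 7 rose, where 17.3% of all features did, and none fell. The median of the 11 was 1.02, against 0.09 for the core particle and -0.01 for the regulatory particle. Gclm (0.81), Gsta3 (0.22), Txnrd1 (0.19) and Hmox1 (-0.02) were not called. Sqstm1, which fell by 0.63, was counted with the pathway genes and is not among these 11. Of the 7 that rose, Nqo1 rose by 1.77 (adjusted p = 0.00164). Slc7a11 rose by 3.10 (adjusted p = 0.00804), and by 1.06 with the normexp background correction; it was well above background on 3 of 4 control arrays. The 8 proteasome genes with a TGACNNNGC match in their start region went both ways: Psmb5 and Psmb6 had 0.44 and 0.16, Psma3, Psmb2, Psmd1, Psmd3 and Psmd9 had -0.11, -0.10, -0.25, -0.22 and -0.26, and Psme4, which was called lower, had -0.61.

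**Figure D5:**
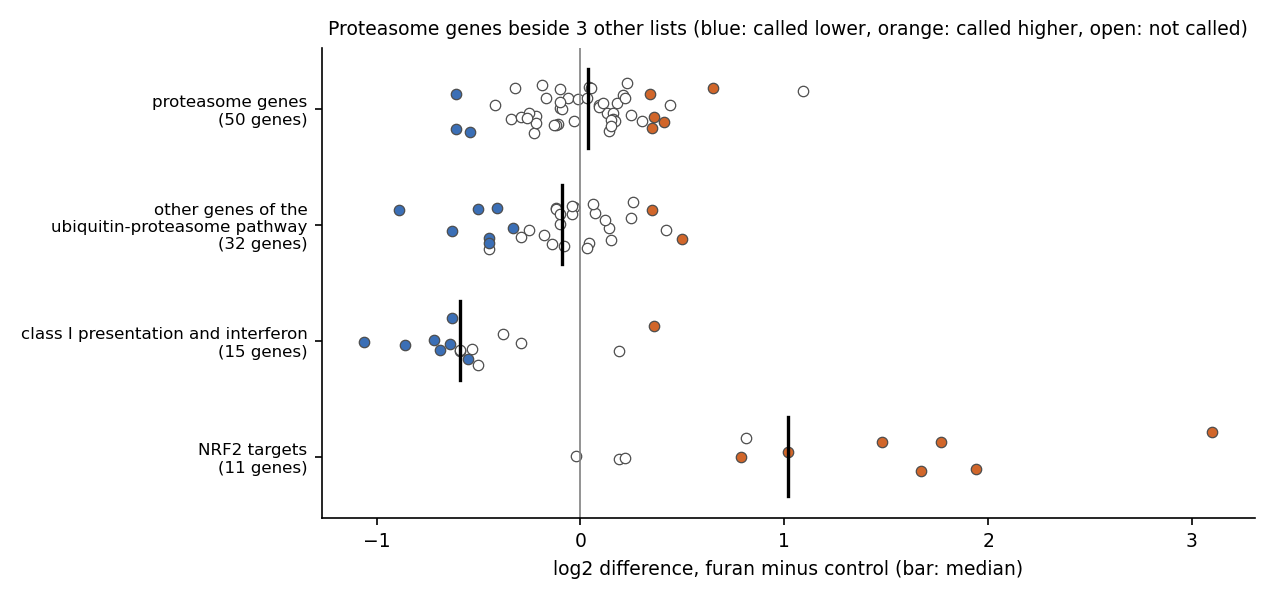
Differences of the tested genes of 4 lists, furan minus control on the log2 scale, with a bar at each median. The 50 proteasome names lie around 0.03, the class I and interferon genes around -0.59 and the NRF2 targets around 1.02.

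Markers of other liver cells were read on the same arrays. Lymphocytes carry much immunoproteasome, and 9 of 13 lymphocyte markers were tested. Their array medians ran from -0.75 to 0.30 in controls and from -0.50 to 0.16 in furan. The median difference was -0.18 (0.07 on slide 1 and -0.57 on slide 2), beside -0.22 for the immunoproteasome subunits (-0.20 and -0.25) and -0.03 for all features. Of the 9 lymphocyte markers 8 lay below 0. None was called, and Ms4a1 was above background on 0 arrays. None of 10 macrophage markers was called either (median -0.14). For these 2 lists limma called none at an adjusted p below 0.05, where 34.2% of all features were called. At an unadjusted p below 0.05 there were 1 lymphocyte and 0 macrophage genes. Of 7 biliary markers 4 rose, where 17.3% of all features did, with a median of 1.54. Control 2 stood apart at an array median of 2.17, where the other controls lay between -0.78 and -0.15. The keratins Krt7 (-0.76, -3.57 to 2.05) and Krt19 (0.72, -2.11 to 3.56) and Spp1 (2.49, -2.1 to 7.09) were not called. Cd24, the largest rise (2.97, adjusted p = 0.0197), lost its call without control 1, 3 or 4 or furan 2 (adjusted p from 0.0502 to 0.0604); Epcam rose by 1.79 (adjusted p = 0.00739), and Cldn7 by 1.54 (adjusted p = 0.0322), a call lost without control 1, 3 or 4 or furan 1 or 2 (adjusted p from 0.051 to 0.0837). None of 6 stellate and matrix markers was called (median 0.17, 0 at an unadjusted p below 0.05). Of 9 hepatocyte markers 6 fell, where 16.9% of all features did, with a median of -0.68. Among the 6 were F9 (-1.57, adjusted p = 0.00371), Hnf4a (-0.98, adjusted p = 0.0074) and Apoa2 (-0.75, adjusted p = 0.00255, and -0.14 after quantile normalisation). Their part in the differences of the proteasome genes was not tested.

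The arrays themselves differed between the groups in brightness. Before scaling, the 75th percentile of each array lay at 827.37 to 1057.32 in controls and 1256.41 to 1595.85 in furan, and 70.95% to 74.82% and 73.19% to 78.52% of spots were well above background. No spot was saturated. The levels above are relative to that percentile, so they show change relative to the upper part of the signals of the same array. The number of arrays limits the precision.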

How the data were processed

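Liver RNA of 8 rats was measured on Agilent rat arrays in 1 colour, and groups came from the sample labels. Per the file headers, the authors extracted the spots with Agilent Feature Extraction 10.7, which gave a background-subtracted processed signal as an intensity for each of 62976 spots, and deposited the flags for background, outlier and saturation that are used here. The deposited series table equals these intensities scaled to a 75th percentile of 1000. Members, lists and alternatives were chosen with earlier results of these data known.

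Flagged and control spots were left out, spots of a probe were averaged, and log2 values were set against the array's 75th percentile over non-control spots. A probe was tested where it was well above background on all 4 arrays of a group, and the brightest probe stood for a gene. Both groups were fitted with limma 3.58.1 in R 4.3.3 (eBayes with no trend, two-sided), adjusted by Benjamini-Hochberg over all 17684 features and called below 0.05. The fit was tested on simulated data. Class medians carry no test, and ratios within an array were tested by exact permutation in Python 3.11.15. Each array is 1 rat, per the design text, so p-values reflect the spread between animals of this experiment.

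Every tested member could be named. Of every other list the text names up to 3 called genes with the largest change in the main direction and the largest in the other; Nfe2l1, Nfe2l2, Pomp, Irf1 and Tap1 were named whatever their values. Some genes that this rule takes are not reported here. Gene names came through the transcript accession of the array annotation for 18438 probes, a current symbol for 3168, a synonym for 419 and the array's own name for 1820; 6522 had none. Members were matched on the array's own gene name, and 2 probes with another array name but a Psm symbol in the reference (GRCr8) were not included. The alternatives tried were 22 other settings of background, normalisation, filter, probes, flags, slide, replicate number, variance and arrays.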

Additional observations from a re-analysis of the deposited data

Results flagged for a closer look

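Furan 4 stood far above the other furan arrays for 4 of the proteasome genes, each by a gap that exceeded the 95% critical value of Dixon's test for 4 values. For Psma5 the gap was 0.866 of the range, with 3.94 against 3.69 to 3.72. For Psmd7 it was 0.903, with 2.91 against 2.72 to 2.74. For Psmf1 it was 0.855, with 2.29 against 2.05 to 2.09, and for Psmd10 it was 0.871, with -0.27 against -0.50 to -0.47. Chance marks about 1 in 20 groups, and 100 groups of 4 were looked at. Without furan 4, Psma5 and Psmg1 passed the threshold as lower under furan, Psma5 at an adjusted p of 0.049.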

How the results depend on the processing

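The medians of the core, regulatory and immunoproteasome genes moved by less than the spread between arrays under every alternative run. So did the differences of all 3 pairs where arrays were left out. Where other values of all arrays were used, the pairs kept their sign and stayed above the threshold. For Psmb8 over Psmb5 that threshold is no check, since it cannot pass alone. Slide and replicate blocks are no check of these medians and pair differences either, because the balanced design leaves them unchanged. Across the fits that left out 1 array, the core median ran from -0.02 to 0.16, the regulatory from -0.06 to 0.06 and the immunoproteasome from -0.35 to -0.15; the Psmb9 over Psmb6 difference ran from -0.42 to -0.26 and the Psmb10 over Psmb7 difference from -0.37 to -0.11. The counts of calls moved more. The features called were 34.2% of those tested, against 16.7% without the filter on dim probes, 0.85% on slide 1 alone and 6.31% on slide 2 alone (2 arrays against 2). The 5 members called higher became 2 without the filter on dim probes, 1 without control 2 and furan 1, and 0 on either slide alone, and ran from 1 to 5 with 1 array left out. The 3 called lower became 5 with normexp, quantile normalisation or a variance trend, and 0 on either slide alone, and ran from 2 to 5 with 1 array left out. The 9 pathway genes called became 4 without the filter, 3 without control 2 and furan 1 and 0 on either slide alone, and ran from 4 to 7; the 9 class I and interferon genes called became 0 on slide 1 and 1 on slide 2, and ran from 7 to 11. With normexp 31.8% of all calls were higher, against 50.6%, and the median of all features was -0.18, against -0.03; the members called there were those reported plus Psmb5, Psmb11, Psmd14 and Psmg1. The cause of these shifts was not tested. Over the 83 genes followed, 115 of 1659 values lost a call and 22 gained one outside the single-slide fits, and no called value turned its sign. Pair ratios were not rerun for the filter, probe and variance alternatives, because each gene of a pair has 1 probe.

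The labels give both groups replicate numbers 1 to 4. Deviations of same-numbered arrays from their group means correlated at -0.303, 0.116, 0.279 and 0.039. Differently numbered arrays were not compared, so these values cannot settle whether the numbers pair the arrays. The fit reported above used no pairing. With the replicate block 3 members were called higher and 2 lower (Psma8, Psmc6, Psme4, Psmg2 and Psmg4), with 4 pathway and 5 class I and interferon genes. The pair differences were taken without a block term, so they could not change there.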
